A study of Mus musculus with 8 samples.

Results

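The creatine cycle genes of brown adipose tissue (BAT) were taken as a set of 6 genes among the 49452 listed: Ckb, Ckmt1, Ckmt2, Gatm, Gamt and Alpl. Members were found by their symbol, and all 6 were present. Ckb was chosen by its measured rise in the cold, so its cold values are given as a description with no test. The other 5 were added as genes of the same pathway.

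BAT of male C57BL/6 mice was measured by RNA-Seq in 8 libraries, 2 per group. Mice of 10 to 12 weeks were housed at 22 °C (replicates 4 and 7) or at 4 °C for 24 h (replicates 2 and 11). The cold exposure ended with a fast of 4 h that followed the first 20 h. Whether the 22 °C mice were fasted too was not clear from the sources used here. Mice of 32 weeks had received CD, a control diet (replicates 6 and 8), or HFD, a diet high in fat (replicates 2 and 6), for 28 weeks, where the sample labels call the control food normal chow. The labels name no transgene or other agent. Because the ages differ, the 22 °C and CD groups are not controls for one another.

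Creatine kinases pass a phosphate between ATP and creatine, and brown fat is known for a cycle in which phosphocreatine is made at the mitochondria and split again, so that ATP is spent as heat. Ckb encodes the brain-type cytosolic kinase, and Ckmt1 and Ckmt2 encode the ubiquitous and the sarcomeric mitochondrial kinase. Gatm and Gamt catalyse the first and the last step of creatine synthesis, and Alpl encodes the tissue-nonspecific alkaline phosphatase, which has been described as the enzyme that splits phosphocreatine in thermogenic fat. Ckm, the muscle-type cytosolic kinase, is the fourth gene of the kinase family and is known as a marker of skeletal muscle.

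The sequence upstream of 3 members is shown because these 3 had more than 1 FPKM in both 4 °C libraries and were higher there than in both 22 °C libraries, with a log2 difference above 1. The windows are the 250 bases before the annotated start, from RefSeq on GRCm38.p6, on the minus strand and read 5′ to 3′. All 6 members had an entry, 8 entries in all, since Ckmt1 and Alpl have a second start. For Alpl the window at the start of the gene as listed in the deposited table is shown. Capitals mark the matches to any of 7 motifs on either strand. These were the TATA box (TATAAA), the CCAAT box (CCAAT), the cyclic AMP response element (TGACGTCA) and the shorter form that lies within it (TGACG), a nuclear receptor site (AAGGTCA), the GC box (GGGCGG) and an E-box (CAGCTG). The windows are chr12:111672339-111672588 for Ckb, chr13:91876886-91877135 for Ckmt2 and chr4:137796385-137796634 for Alpl.
Ckb: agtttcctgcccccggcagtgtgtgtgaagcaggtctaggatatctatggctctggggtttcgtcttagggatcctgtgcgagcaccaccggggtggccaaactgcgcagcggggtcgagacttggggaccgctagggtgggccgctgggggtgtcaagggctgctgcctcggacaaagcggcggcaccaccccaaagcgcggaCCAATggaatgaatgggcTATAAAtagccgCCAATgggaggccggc
Ckmt2: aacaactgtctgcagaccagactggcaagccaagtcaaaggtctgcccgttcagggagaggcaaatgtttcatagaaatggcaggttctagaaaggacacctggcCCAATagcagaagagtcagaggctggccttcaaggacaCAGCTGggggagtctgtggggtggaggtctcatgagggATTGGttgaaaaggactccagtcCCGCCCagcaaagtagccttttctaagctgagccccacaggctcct
Alpl: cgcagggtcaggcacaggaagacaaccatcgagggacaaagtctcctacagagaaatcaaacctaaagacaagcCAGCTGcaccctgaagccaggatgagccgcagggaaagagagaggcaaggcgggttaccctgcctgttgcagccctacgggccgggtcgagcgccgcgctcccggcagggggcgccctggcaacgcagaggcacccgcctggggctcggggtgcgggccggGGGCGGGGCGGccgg
The Ckb window held TATAAA on its own strand from base 28 to base 23 before the start, with CCAAT at bases 46 to 42 and again at bases 16 to 12. Of all 32851 upstream windows of this length, 12.4% held TATAAA and 33.8% held CCAAT on either strand. The Ckmt2 window held 2 matches to CCAAT, 1 of them on each strand, together with 1 GGGCGG match and 1 CAGCTG match. The Alpl window held 2 overlapping GGGCGG matches next to the start and 1 CAGCTG match. GGGCGG occurred in 32.7% and CAGCTG in 13% of all windows. None of the 3 windows held TGACGTCA (1.55% of all windows), TGACG (17.8%) or AAGGTCA (4.08%). The window of the second Alpl start, not shown, held TATAAA at bases 192 to 187 and TGACG at bases 128 to 124, both on the opposite strand, and no GGGCGG or CAGCTG. These matches are letters in a window, and binding was not measured.

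The values are FPKM, fragments counted relative to transcript length and to the mapped fragments of the library, so levels can be compared between genes per length. Between 10228 and 11436 genes reached 1 FPKM per library. Brown adipocyte markers were present throughout, with Ucp1 from 699 to 6462 FPKM. In 3 libraries, both at 22 °C and CD replicate 6, all X-linked and Y-linked genes and nearly all mitochondrial genes are listed at 0. The authors' values were thus not complete in the same way in all groups. A library of each group carried the satellite transcript Gm10800 at more than 100 FPKM. These are called satellite-high here (replicate 4 of 22 °C, replicate 11 of 4 °C, replicate 8 of CD, replicate 2 of HFD), and the others satellite-low. The autosomal sum of a library, used below for rescaling, left out Ucp1, ribosomal RNA genes and genes without a transcript of at least 200 bases. For the mice kept at 22 °C this sum was 207100 FPKM in replicate 4 and 230100 FPKM in replicate 7. For those kept in the cold it was 352900 FPKM in replicate 2 and 242300 FPKM in replicate 11.

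**Figure D1:**
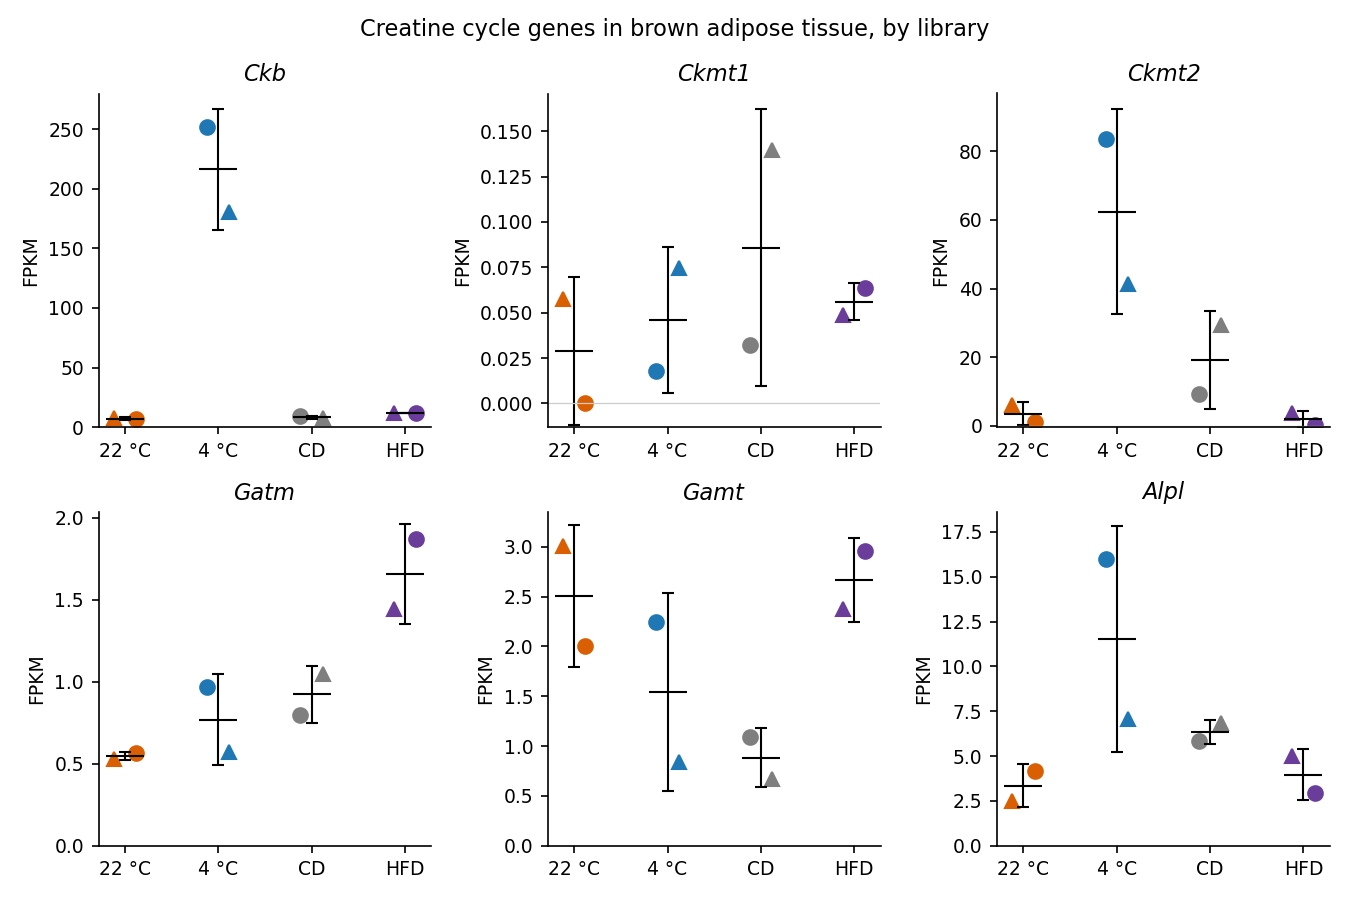
FPKM of the 6 creatine cycle genes in each library (y axes, own scale per gene) in the 4 groups (x axes). Triangles are satellite-high and circles satellite-low libraries, and bars give mean ± SD (n = 2). Ckb and Ckmt2 were highest in both 4 °C libraries, Gatm in both HFD libraries, and Ckmt1 stayed below 0.14 FPKM.

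Ckb (ENSMUSG00000001270, chromosome 12, 111669355 to 111672338, minus strand) was at 7.96 and 6.50 FPKM in the mice kept at 22 °C and at 252 and 180.5 FPKM in those kept at 4 °C. Its mean went from 7.23 ± 1.03 to 216 ± 50.6 FPKM (SD, n = 2 each), a ratio of means of 29.9. The lower 4 °C value was 22.7 times the higher 22 °C value. The log2 difference of 4.71 ranked 9 from the largest rise among the 17477 genes tested in this comparison. It was 4.34 between the satellite-high and 5.08 between the satellite-low libraries. Since the gene was chosen by this rise, these values describe it and support nothing further. The values correspond to about 2648 and 2112 fragments at 22 °C and to about 60900 and 50930 at 4 °C. In bulk tissue, more cells that carry a transcript and more transcript per cell cannot be told apart.

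Ckb in the diet groups lay near its 22 °C level. It had 9.33 and 7.48 FPKM on CD and 11.8 and 11.6 on HFD. Both HFD libraries lay above both CD libraries. The log2 difference was 0.44 (SE 0.34, 95% interval −0.35 to 1.23), with an adjusted p of 0.601 (limma, Benjamini-Hochberg over all genes tested). It was 0.59 between satellite-high and 0.29 between satellite-low libraries. After median centring of the libraries the HFD and CD values overlapped. In order of the group means, Ckb went from 22 °C over CD and HFD to 4 °C. The 22 °C and CD libraries overlapped, and the 4 °C libraries stood apart from all 6 others.

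Ckb was also set against Ucp1, the uncoupling protein that makes heat in BAT. Ckb amounted to 11.4 and 4.56 FPKM per 1000 FPKM of Ucp1 at 22 °C and to 39.0 and 33.6 at 4 °C. On CD it amounted to 2.65 and 3.25, and on HFD to 5.82 and 3.90. Ucp1 itself had 3519 and 2300 FPKM on CD, above both 22 °C libraries (699 and 1427 FPKM), while the Ckb values of these groups overlapped. Markers of Schwann cells and neurons, which use Ckb, were also followed, 6 autosomal genes in all. Their summed level was 13.1 and 13.7 FPKM at 22 °C, 41.9 and 32.6 at 4 °C, 77.7 and 37.0 on CD and 69.7 and 109 on HFD. At 4 °C 5 of the 6 were higher in both libraries (37.9% of all genes tested). Sox10 overlapped, with 0.258 and 0.255 FPKM at 22 °C and 0.327 and 0.212 at 4 °C. Most of the sum came from S100b. It had 7.66 and 7.95 FPKM at 22 °C, 23.3 and 21.5 at 4 °C, 68.7 and 22.7 on CD and 57.2 and 89.7 on HFD. The part of these cells in the Ckb values was not tested.

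Ckmt2 (ENSMUSG00000021622, chromosome 13, 91853387 to 91876885, minus strand) had the widest range of the members with a value above 0 in every library, 247 times between its lowest and highest library. It had 6.02 and 1.14 FPKM at 22 °C and 83.5 and 41.4 FPKM at 4 °C. The groups did not overlap, and the mean went from 3.58 ± 3.45 to 62.4 ± 29.8 FPKM (SD, n = 2 each). The log2 difference of 3.95 (SE 0.63, 95% interval 2.36 to 5.54) had an adjusted p of 0.0517 (limma) and was not past threshold, which was an adjusted p under 0.05 with at least a 2-fold change. It ranked 23 of 17477 from the largest rise. It was 2.59 between satellite-high and 5.30 between satellite-low libraries. The adjusted p passed after median centring (0.0173), with library type as a covariate (0.0263) and with all 8 libraries in 1 fit (0.0435), and ran from 1.57e-06 to 0.182 over the alternatives, the highest with no filter on low values.

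In the diet libraries Ckmt2 was at the lower level on HFD. It had 9.15 and 29.3 FPKM on CD and 3.67 and 0.338 FPKM on HFD. Both HFD libraries lay below both CD libraries, and the mean on CD (19.2 ± 14.2 FPKM, SD, n = 2) was 9.59 times that on HFD (2.002 ± 2.35 FPKM, SD, n = 2). The log2 difference was −2.81 (SE 0.69, 95% interval −4.43 to −1.19, adjusted p 0.170, limma) and ranked 29 of 17543 from the largest fall. It was −2.70 between satellite-high and −2.92 between satellite-low libraries. It passed with library type as a covariate (adjusted p 0.00126), and adjusted p ran from 2.07e-12 to 0.578 over the alternatives. The lowest came from a fit with CD replicate 6 left out, in which CD replicate 8 stood alone. In order of the group means, Ckmt2 went from HFD over 22 °C and CD to 4 °C, and only the HFD and 22 °C libraries overlapped among neighbours. An antisense gene inside Ckmt2 was listed at 0 in 7 of the 8 libraries.

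Skeletal muscle markers differed between the libraries in nearly the same order. The 13 markers found summed to 523 and 132 FPKM at 22 °C, 3942 and 1799 at 4 °C, 525 and 1471 on CD and 191 and 37.5 on HFD. All 13 were higher in both 4 °C libraries (37.9% of all genes tested were), 12 of 13 were lower in both HFD libraries (5.8% of all genes), and none was listed at 0 in any library. Ckm put the 8 libraries in exactly the order of Ckmt2, from HFD replicate 6 to 4 °C replicate 2. Ckm had 115 and 21.7 FPKM at 22 °C, 1002 and 404 at 4 °C, 130 and 257 on CD and 31.4 and 3.58 on HFD. The ratio of Ckmt2 to Ckm stayed between 0.0523 and 0.117, a 2.23-fold range, while Ckm itself spanned a 280-fold range. The part of muscle RNA in the Ckmt2 values was not tested.

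Ckb did not keep such a ratio to Ckm. The ratio of Ckb to Ckm ran from 0.0291 in CD replicate 8 to 3.24 in HFD replicate 6, a 111-fold range. Ckb and Ckm were both highest in the 4 °C libraries, with 252 and 180.5 FPKM of Ckb and 1002 and 404 FPKM of Ckm. The part of muscle RNA in the Ckb values was not tested.

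**Figure D2:**
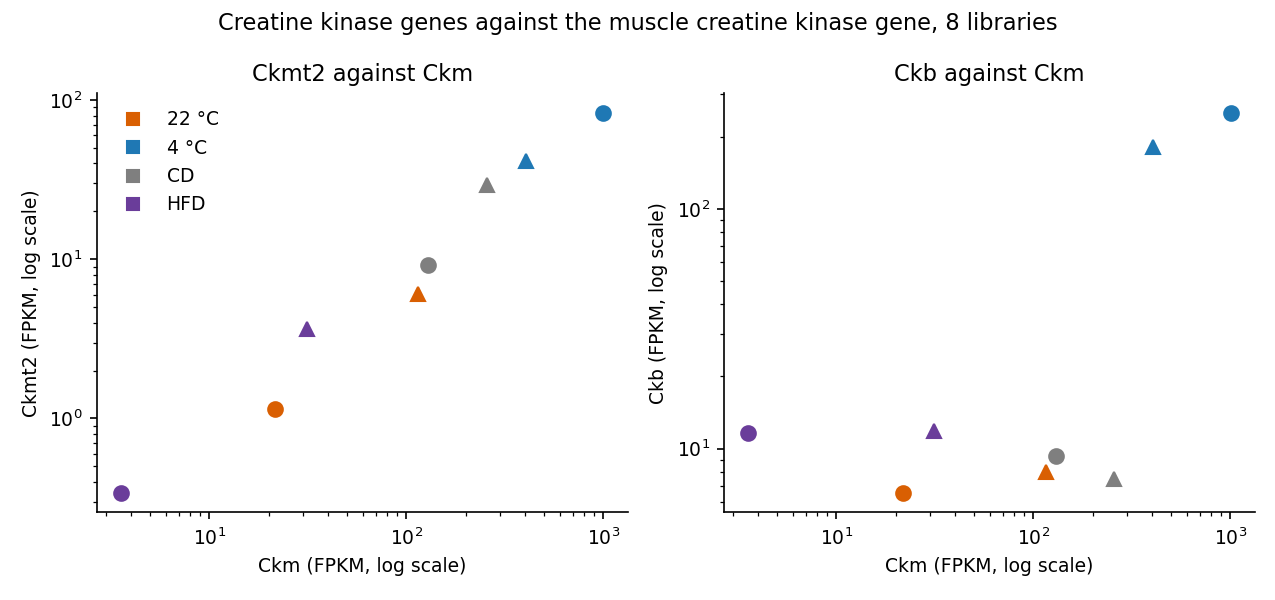
FPKM of Ckmt2 (left) and Ckb (right) against FPKM of Ckm in the 8 libraries, all axes on a log scale. Colours are the groups, triangles satellite-high and circles satellite-low libraries. Ckmt2 kept to 0.0523 to 0.117 of Ckm, and Ckb was at 6.50 to 11.8 FPKM in the 6 libraries with 3.58 to 257 FPKM of Ckm. It was at 180.5 and 252 FPKM in the 4 °C libraries, which had the highest Ckm (404 and 1002 FPKM).

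The makeup of the kinase transcripts followed from these values. Summed over Ckb, Ckm, Ckmt1 and Ckmt2, the level was 129 and 29.3 FPKM at 22 °C, 1338 and 626 at 4 °C, 148 and 294 on CD and 46.9 and 15.6 on HFD. Ckb held 6.16% and 22.2% of the sum at 22 °C, 18.8% and 28.9% at 4 °C, 6.30% and 2.54% on CD and 25.1% and 74.5% on HFD. The 22 °C and 4 °C shares overlapped, although the Ckb level did not. Ckmt2 held 2.17% to 9.96% of the sum, and Ckmt1 at most 0.407%. Ckm was the largest part in 7 of the 8 libraries and Ckb in HFD replicate 6.

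**Figure D3:**
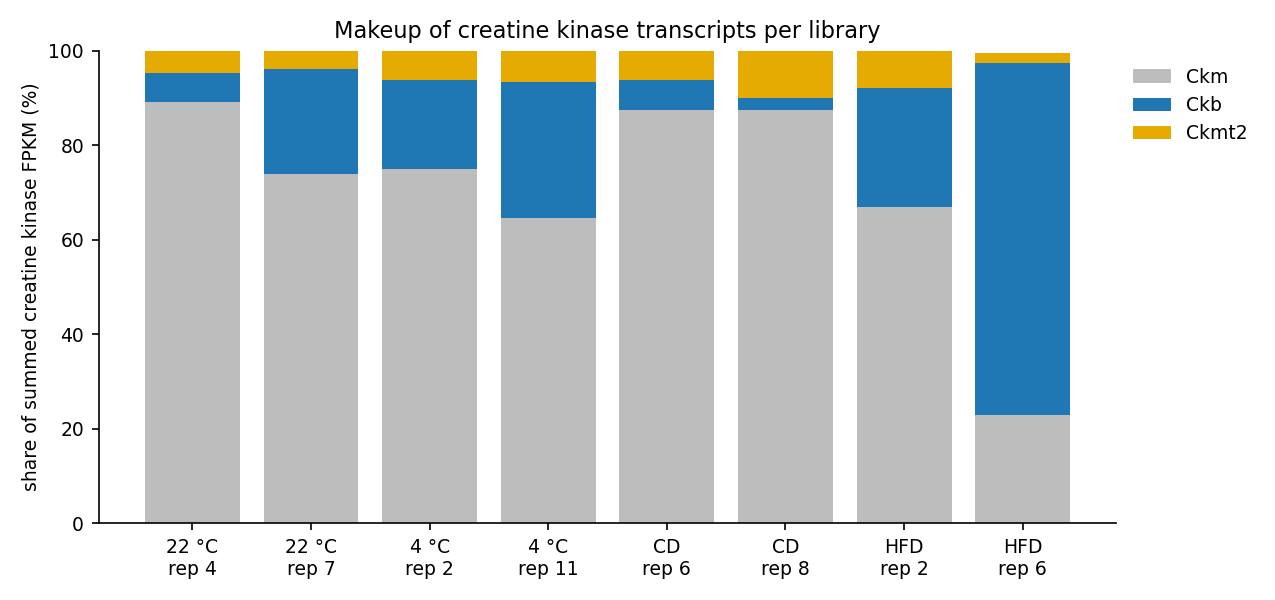
Share of the summed creatine kinase FPKM (y axis, %) held by Ckm, Ckb and Ckmt2 in each library (x axis, replicate numbers as in the labels), with Ckmt1, at most 0.407%, not drawn. The blue Ckb share is 2.54% in CD replicate 8 and 74.5% in HFD replicate 6.

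Ckmt1 (ENSMUSG00000000308, chromosome 2, 121357714 to 121363737, plus strand) was barely measured. It had 0.0576 FPKM in 22 °C replicate 4 and was listed at 0 in replicate 7, where 3 fragments would give 0.0169 FPKM. It had 0.0176 and 0.0745 at 4 °C, 0.0320 and 0.140 on CD and 0.0488 and 0.0635 on HFD. These values correspond to at most about 19.3 fragments per library. All neighbouring groups overlapped, and the gene did not reach 0.1 FPKM in 2 libraries of either comparison, so it did not enter the tests. With no filter on low values its log2 difference was 0.024 in the cold (adjusted p 0.773, limma) and −0.038 on HFD (adjusted p 0.942, limma).

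Of the 4 members tested in the cold beside Ckb (Ckmt2, Gatm, Gamt and Alpl), 0 were past threshold with limma, and 2 had an unadjusted p under 0.05. Of all genes tested, 1.44% were past threshold, and an unadjusted p under 0.05 was found for 24.5%. Of the 5 measured members, 4 lay higher in both libraries of the cold group, Ckb included, where 37.9% of all genes were, and 0 were lower in both, where 20.6% were. After median centring 3 were higher (Ckb, Ckmt2 and Alpl) and 2 lower (Gatm and Gamt). After rescaling to the autosomal sum the same 3 were higher and 1 was lower (Gamt). Ckb was chosen in this contrast, so nothing is read from these counts. Without Ckb, the median log2 difference of the other 4 was 0.82, against 0.072 over all genes tested. In the diet comparison 0 of 5 were past threshold, where 0.0684% of all genes were, and 2 had an unadjusted p under 0.05, where 14.4% of all genes did. All 5 separated the diet groups: 3 were higher in both HFD libraries (39.9% of all genes) and 2 were lower in both (5.8%). The values of Ckb and Gatm overlapped between the diets after median centring, and those of Ckb and Alpl after rescaling to the autosomal sum. The median log2 difference of the 5 on HFD was 0.44, which is the value of Ckb, against 0.18 over all genes. Without Ckb it was −0.064. The library codes in the labels begin in 2 ways, and CD replicate 6 shares its beginning with the 22 °C and 4 °C libraries, CD replicate 8 with both HFD libraries. What the codes mark is not given in the sources used here. Without CD replicate 6, when the 3 remaining libraries share 1 beginning, the log2 difference on HFD was 0.58 for Ckb, −3.598 for Ckmt2, 0.37 for Gatm, 1.13 for Gamt and −0.69 for Alpl, the same direction for each as with all 4 libraries.

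**Figure D4:**
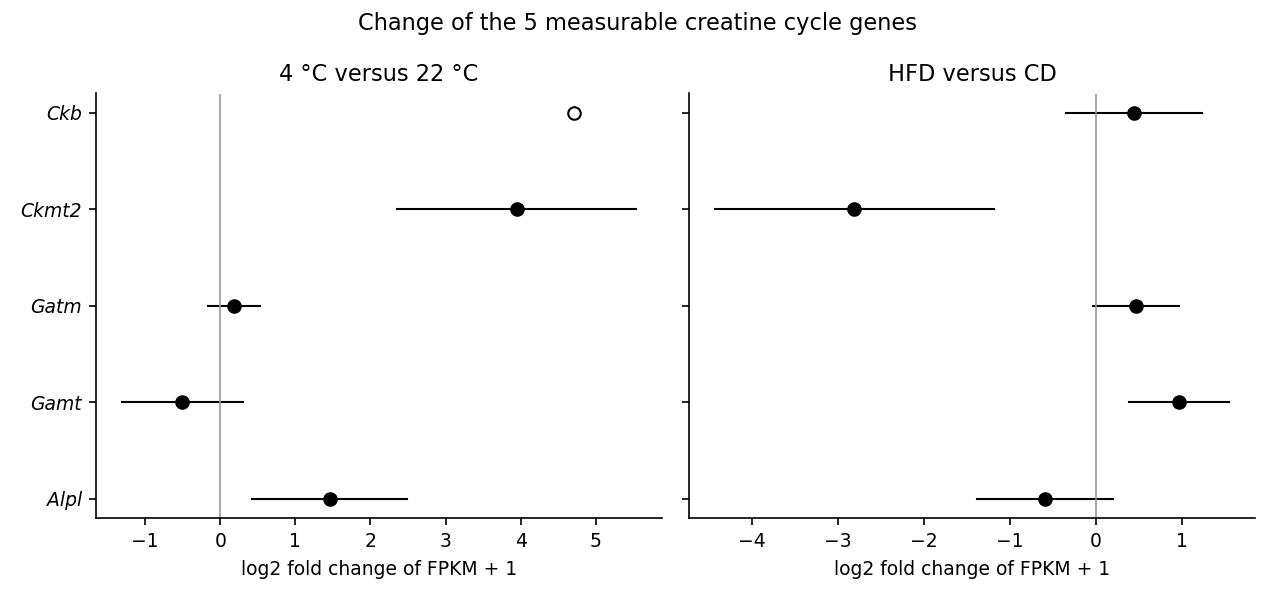
Log2 fold change of FPKM + 1 (x axes) of the 5 members that could be fitted (y axis), at 4 °C against 22 °C (left) and on HFD against CD (right). Points are estimates, lines 95% limma intervals, and the open point is Ckb in the cold, given with no test. Ckmt2 lies at 3.95 and −2.81.

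Gatm (ENSMUSG00000027199, chromosome 2, 122594467 to 122611303, minus strand), the amidinotransferase that makes guanidinoacetate from arginine and glycine, was low throughout. It had 0.529 and 0.564 FPKM at 22 °C and 0.965 and 0.571 FPKM at 4 °C. The groups were separated by less than the spread between the 4 °C libraries, and the log2 difference of 0.18 (SE 0.14, 95% interval −0.16 to 0.53, adjusted p 0.448, limma) became −0.074 after median centring. It was 0.039 between satellite-high and 0.33 between satellite-low libraries. On CD it had 0.798 and 1.05 FPKM and on HFD 1.44 and 1.87. Both HFD libraries were the highest of the 8, but the log2 difference of 0.47 (SE 0.21, 95% interval −0.037 to 0.97) had an adjusted p of 0.378 (limma), and the diet groups overlapped after median centring. It was 0.26 between satellite-high and 0.68 between satellite-low libraries.

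Gamt (ENSMUSG00000020150, chromosome 10, 80258151 to 80261012, minus strand), the methyltransferase that completes creatine, had 3.01 and 2.002 FPKM at 22 °C and 2.25 and 0.843 at 4 °C. These groups overlapped, with a log2 difference of −0.50 (SE 0.32, 95% interval −1.31 to 0.30, adjusted p 0.384, limma). It was −1.12 between satellite-high and 0.11 between satellite-low libraries. After median centring or rescaling, both 4 °C libraries lay below both others. On CD Gamt had 1.09 and 0.671 FPKM and on HFD 2.37 and 2.96. The groups did not overlap, and the HFD mean of 2.67 ± 0.418 was 3.03 times the CD mean of 0.881 ± 0.297 FPKM (SD, n = 2 each). The log2 difference of 0.97 (SE 0.25, 95% interval 0.39 to 1.55, adjusted p 0.170, limma) was 1.01 between satellite-high and 0.92 between satellite-low libraries. It was 1.13 without CD replicate 6. With library type as a covariate the adjusted p was 0.00921 (limma), but the change of FPKM + 1 (log2 0.97) stayed under 2-fold. With a pseudocount of 0.1 the log2 difference was 1.52 (adjusted p 0.208, limma). The adjusted p was 0.540 (limma) with no filter on low values. HFD and 22 °C libraries overlapped in level, as did CD and 4 °C libraries.

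The level of Gatm was below that of Gamt in every library except CD replicate 8, where Gatm was above Gamt. Markers of other cells also separated the diet groups: the 6 macrophage markers summed to 21.5 and 10.8 FPKM on CD and 72.7 and 62.7 on HFD, all 6 higher in both HFD libraries (39.9% of all genes). The 5 markers of fibroblasts and progenitors summed to 68.3 and 76.8 on CD and 117 and 148 on HFD, again all higher in both. The 7 white adipocyte markers summed to 23.2 and 13.8 on CD and 167 and 176 on HFD, with 4 higher in both HFD libraries. Their sums at 22 °C (144 and 82.0) and at 4 °C (254 and 130) were also above both CD libraries. No marker of these 3 lists was lower in both HFD libraries. Their part in the Gatm and Gamt values was not tested.

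Alpl (ENSMUSG00000028766, chromosome 4, 137741733 to 137796384, minus strand) had 2.52 and 4.19 FPKM at 22 °C and 16.0 and 7.08 at 4 °C. Both 4 °C libraries lay above all 6 other libraries, with 4 °C replicate 11 close to CD replicate 8. The mean went from 3.35 ± 1.18 to 11.5 ± 6.30 FPKM (SD, n = 2 each). The log2 difference of 1.46 (SE 0.41, 95% interval 0.43 to 2.48, adjusted p 0.115, limma) was 1.2 between satellite-high and 1.71 between satellite-low libraries. It passed with library type as a covariate (adjusted p 0.0282) and without 22 °C replicate 7 (0.00739), and adjusted p reached 0.281 with no filter on low values. On CD it had 5.86 and 6.82 FPKM and on HFD 4.98 and 2.95, with a log2 difference of −0.59 (SE 0.34, 95% interval −1.38 to 0.20, adjusted p 0.479, limma). That difference was −0.39 between satellite-high and −0.80 between satellite-low libraries. The diet groups overlapped after rescaling to the autosomal sum. In order of the group means, Alpl went from 22 °C over HFD and CD to 4 °C, with overlap between the 22 °C and HFD libraries.

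The phosphatase encoded by Alpl is also known in neutrophils, and 5 neutrophil markers summed to 1.12 and 2.06 FPKM at 22 °C and to 0.735 and 0.397 at 4 °C. At 4 °C 2 of the 5, Cxcr2 and S100a9, were lower in both libraries (20.6% of all genes) and 0 were higher in both (37.9%), and Ly6g was listed at 0 in these 4 libraries. On CD it was 4.50 and 2.97 and on HFD 6.02 and 14.7, with 3 of the 5 higher in both HFD libraries (39.9% of all genes). Endothelial markers, of which 7 were followed, summed to 84.9 and 83.1 FPKM at 22 °C and 89.8 and 122 at 4 °C. Of these, 3 were higher (37.9% of all genes) and 2 lower (20.6%) in both 4 °C libraries. With the diets the endothelial markers summed to 69.3 and 68.2 FPKM for CD and to 104 and 103 for HFD. In both HFD libraries 3 were higher (39.9% of all genes) and 0 lower (5.8%). The skeletal muscle markers given above were higher in both 4 °C libraries and, 12 of 13, lower in both HFD libraries, as Alpl was. The part of neutrophil, endothelial or muscle RNA in the Alpl values was not tested.

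The genes most like each member over the 8 libraries were sought among 9919 autosomal protein-coding genes by Pearson r of log2(FPKM + 1), given as a description, since the libraries share their groups. For Ckb these were Tacr2 (r 0.987), Slc39a14 (0.984) and Kif16b (0.984). Tacr2, a tachykinin receptor gene, had 0.0384 and 0.102 FPKM at 22 °C and 5.01 and 3.30 at 4 °C, and at most 0.152 FPKM in the diet libraries. For Ckmt2 they were Cox6a2 (0.997), a muscle form of a cytochrome c oxidase subunit, and the sarcomere genes Myot (0.997) and Myom2 (0.996). For Gatm they were Dennd4a (0.977), Palld (0.968) and Ptpn9 (0.966), and for Gamt Fap (0.977), Ctbs (0.971) and Fgfrl1 (0.971).

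For Alpl the closest gene was Phospho1 (0.933), a phosphatase known with Alpl from bone mineralisation, followed by Lmod2 (0.926) and Myl6b (0.923). Lmod2, a gene of muscle sarcomeres, had 38.0 FPKM in 4 °C replicate 2 and 0.0543 in HFD replicate 6. Phospho1 had 20.6 and 39.9 FPKM at 22 °C, 178 and 101 at 4 °C, 51.1 and 54.5 on CD and 27.6 and 29.9 on HFD. Its log2 difference in the cold was 2.19 (SE 0.43, adjusted p 0.0636, limma) and on HFD −0.85 (SE 0.41, adjusted p 0.400). For Ckmt1 the highest r was 0.818 (Pcca), over values that rest on few fragments.

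The wider pathway was followed in a list of 31 genes around creatine: Ckm, the transport of creatine, the mitochondrial carriers and pores that meet the kinases, the supply of arginine and glycine, the methyl donor cycle that feeds Gamt, and relatives of Alpl with other mineralisation genes. In the cold, 23 could be tested and 0 were past threshold with limma (1.44% of all genes), while 12 had an unadjusted p under 0.05 (24.5% of all genes). Among these 23, 18 lay higher in both 4 °C libraries (37.9% of all genes) and 1 was lower in both (20.6%), with a median log2 difference of 0.63 against 0.072 over all genes. In the diet comparison 25 could be tested and 0 were past threshold (0.0684%), with 6 at an unadjusted p under 0.05 (14.4%). Of the 25, 8 were higher in both HFD libraries (39.9% of all genes) and 5 lower in both (5.8%), with a median of 0.27 against 0.18. Counts of pathway genes higher or lower in both libraries used the deposited values and were not repeated after median centring or rescaling.

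By role, all 5 autosomal mitochondrial partners (Slc25a4, Slc25a3, Vdac1, Vdac2 and Vdac3) were higher in both 4 °C libraries, as were 37.9% of all genes. The skeletal muscle markers given above were higher there too, and the part of muscle RNA in the partners' values was not tested. Slc25a4, which exchanges ADP for ATP across the inner membrane, had 91.3 and 81.8 FPKM at 22 °C and 248 and 149 at 4 °C. Its log2 difference was 1.15 (SE 0.33, adjusted p 0.117, limma). In the arginine supply, Asl, which releases arginine, came closest to the threshold, with 4.83 and 4.33 FPKM at 22 °C and 11.3 and 12.3 at 4 °C. Its log2 difference was 1.197 (SE 0.18, adjusted p 0.0501, limma). Slc7a1, an importer of arginine, had 0.258 and 0.182 FPKM at 22 °C and 1.94 and 0.800 at 4 °C (log2 difference 0.92, adjusted p 0.1004, limma).

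In the methyl donor cycle, 5 of the 6 genes tested were higher in both 4 °C libraries (37.9% of all genes) and Mtr was lower in both (20.6%). The margins were small for Mat2a, 1 of the 5, and for Mtr, with log2 differences of 0.070 and −0.073. Mat2a had 31.21 and 32.01 FPKM at 22 °C and 34.15 and 32.35 at 4 °C. Gnmt, which spends methyl groups on glycine, had 0.650 and 0.732 FPKM at 22 °C, 3.48 and 7.98 at 4 °C, 0.853 and 0.662 on CD and 0.130 and 0.161 on HFD. Its log2 difference was 1.91 in the cold (SE 0.35, adjusted p 0.0594, limma) and −0.62 on HFD (SE 0.11, adjusted p 0.138). Of the phosphatase relatives, Alpi, Alppl2 and Akp3 had at most 0.026 FPKM in any library, so of these 4 alkaline phosphatase genes Alpl alone was above 1 FPKM in any library. Slc6a8, the creatine transporter, is X-linked and listed at 0 in the 3 libraries without X values. It had 10.8 and 5.99 FPKM at 4 °C, 5.13 in CD replicate 8 and 5.86 and 7.10 on HFD, and was not tested.

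**Figure D5:**
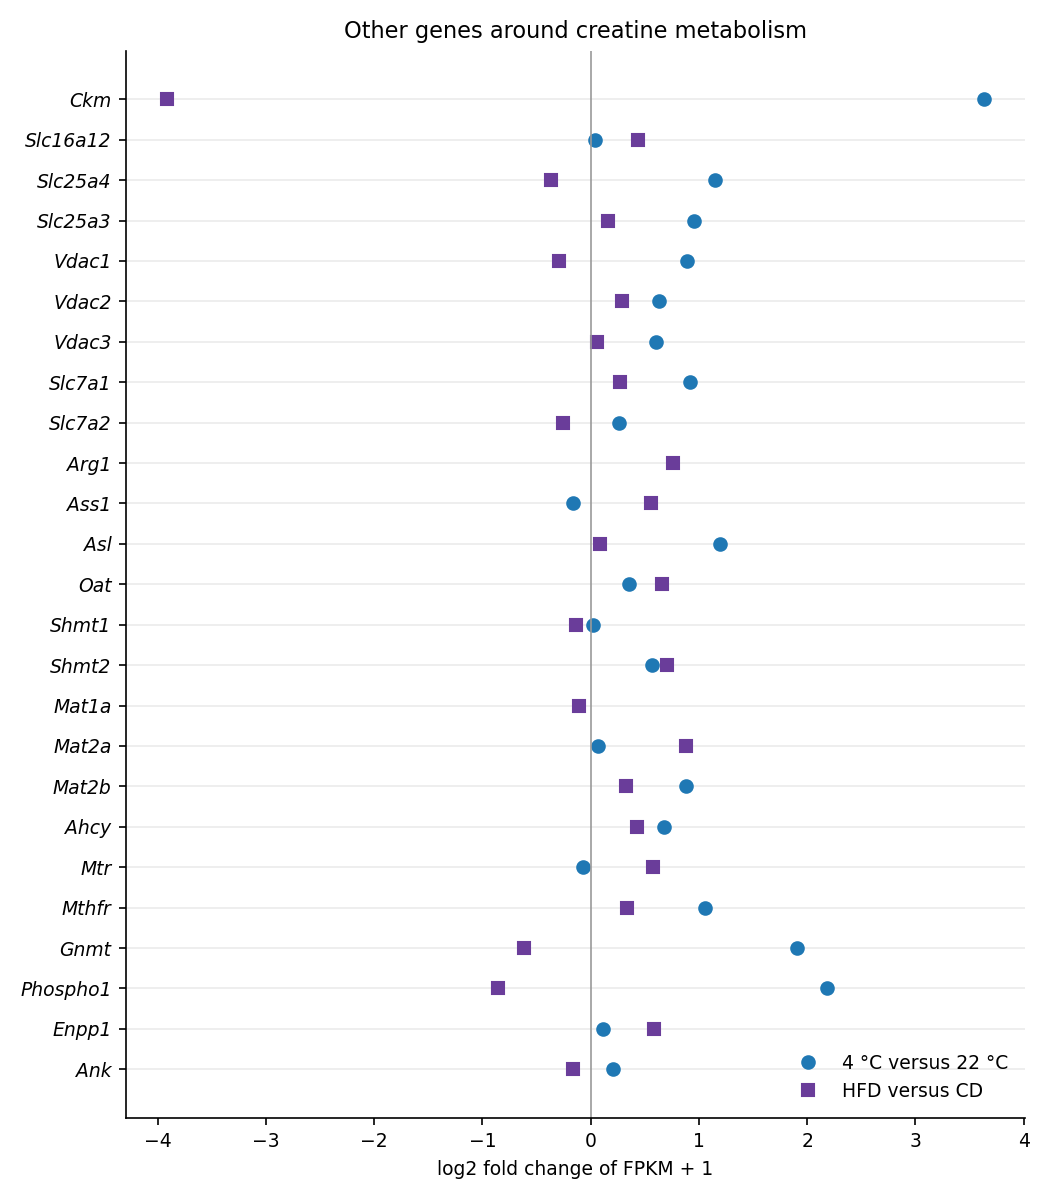
Log2 fold change of FPKM + 1 (x axis) of the listed pathway genes that could be tested (y axis), for 4 °C against 22 °C (blue circles) and HFD against CD (purple squares). Ckm lies at 3.63 and −3.91, and none of the genes was past threshold in either comparison.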

How the data were processed

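The deposited FPKM were made by the authors from directional, ribosomal RNA-depleted libraries read as paired ends of 100 bases, with TopHat2 2.0.10 on GRCm38 and Cufflinks on Ensembl release 87. For Cufflinks the methods name version 2.1.1 and the submitters' processing notes 2.2.1. Replicates were not pooled. Counts were not used here.

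After adding 1 and taking log2, FPKM were fitted in R 4.3.3 by limma 3.58.1 (lmFit, eBayes with trend), 4 libraries per comparison, no covariate. Genes with at least 0.1 FPKM in 2 libraries entered, without X, Y and mitochondrial genes. P-values are two-sided and Benjamini-Hochberg adjusted over all genes of a comparison, and the threshold was 0.05 with a 2-fold change. Adding 1 understates changes of low genes. The fits were tested on simulated data in which all genes had the same independent spread. Differences in library type or scale were not simulated, so that test cannot speak to them. Where no source says that libraries came from separate animals, p-values measure only the spread between these libraries.

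Members and lists were chosen with earlier results of these data known. All members, the pathway list and the 3 most similar genes per member were named. Alternatives were pseudocount, filters, scalings, X, Y and mitochondrial genes, a joint fit, library type and leaving out each library.

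Depth is not stated. Low values of genes with 1 exon (600 to 3000 bases) fell on whole multiples of 1 fragment in 97.7% to 98.6% of cases (within 0.1), which puts 1 fragment on a transcript of 2000 bases at 0.00438 to 0.00602 FPKM. Fragment numbers rest on the longest transcript, are approximate and cover counting error only.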

Additional observations from a re-analysis of the deposited data

How the results depend on the processing

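At 4 °C against 22 °C, 252 genes were past threshold (213 higher, 39 lower). The count was 474 with a pseudocount of 0.1, 0 with no filter on low values (4691 at an unadjusted p under 0.05), 529 with a filter of 1 FPKM, 758 after median centring (493 higher, 265 lower), 491 after quantile normalization (313 and 178), 530 with values rescaled to the autosomal sum (293 and 237), 920 with X, Y and mitochondrial genes kept, 439 with all 8 libraries in 1 fit and 859 with library type as a covariate. Leaving out 1 library gave 1 (without 4 °C replicate 2) to 767 (without 22 °C replicate 7). On HFD, 12 genes passed (9 higher, 3 lower). The count was 0 with no filter, after quantile normalization, after rescaling or with X, Y and mitochondrial genes kept (2490, 2127, 2285 and 2533 at an unadjusted p under 0.05), 24 with the 1 FPKM filter, 45 after median centring (23 and 22), 75 with all 8 libraries and 745 with library type. Leaving out 1 library gave 98 (without HFD replicate 6) to 726 (without CD replicate 6). The median over all genes with median centring was −0.19 in the cold, against 0.072, and −0.18 on HFD, against 0.18.

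Ckb at 4 °C, a value with no test, was 4.30 after quantile normalization, 4.32 after rescaling, and 4.34 and 5.08 within satellite-high and satellite-low libraries, against 4.71. Keeping X, Y and mitochondrial genes adds X-linked genes listed at 0 in both 22 °C libraries, which can only rise at 4 °C. Ckmt2 in the cold was past threshold (3.95) in that fit, with the 1 FPKM filter, with all 8 libraries and with library type. It also passed after median centring (3.69) and after rescaling (3.599). It was 2.59 and 5.30 within the library types, and 3.09 to 4.80 with 1 library left out, past threshold without either 22 °C library. Alpl in the cold passed with library type (1.46) and without 22 °C replicate 7, and ran from 0.92 to 1.99 with 1 library left out. Gatm in the cold reversed after median centring (−0.074). Gamt in the cold was −1.12 and 0.11 within the library types. On HFD, Ckmt2 passed with library type (−2.81) and without CD replicate 6, CD replicate 8 or HFD replicate 2, with a range of −3.71 to −1.91. Gamt on HFD ran from 0.81 to 1.13 with 1 library left out and passed without CD replicate 6. Within the library types Ckb was 0.59 and 0.29 and Gatm 0.26 and 0.68 on HFD. Alpl on HFD ran from −0.89 (without HFD replicate 2) to −0.29 (without HFD replicate 6) with 1 library left out. The causes were not tested, except that leaving out a library leaves the other of its group alone, assumed to vary like the other group. No other direction changed for Ckb, Ckmt2, Gatm, Gamt or Alpl. Gatm in the cold gave no value with the 1 FPKM filter, which it did not pass. No paired analysis was possible because the 22 °C and 4 °C groups share no replicate number and CD and HFD share only number 6. Library type, which occurs once per group, was fitted as a covariate, as given above.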
